A study of Mus musculus with 6 samples.

Results

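In all, 10 genes of cholinergic transmission were examined in the hippocampus of sham-operated and injured mice. Of these, 5 were grouped as presynaptic genes of the cholinergic neuron (Chat, Slc5a7, Slc18a3, Ache and Lhx8). The other 5 were receptors for acetylcholine (Chrm1, Chrm2, Chrm3, Chrna7 and Chrnb2). The 10 genes were chosen by symbol from the 52550 genes listed for every library. All 10 were found, and 9 passed the filter on low counts, the exception being Lhx8. The samples were whole hippocampi of male C57BL / 6 mice (C57B6/J in the methods), 8 to 10 weeks old, taken 24 h after surgery. The sham group (Sham1 to Sham3) and the TBI group (TBI1 to TBI3) shared the ketamine and xylazine anesthesia and the right parietal craniotomy, and the TBI group alone received a controlled cortical impact of moderate severity. Each of the 6 libraries came from 1 mouse. The methods describe exposing the hippocampus on both sides and do not say whether the sides were pooled.

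Acetylcholine is made from choline and acetyl-CoA by choline acetyltransferase, loaded into vesicles by the vesicular acetylcholine transporter, and split in the cleft by acetylcholinesterase, after which the choline is taken up again by a high-affinity transporter. The cell bodies that supply the hippocampus lie mainly outside it, in the medial septum and diagonal band of the basal forebrain, and the striatum has cholinergic interneurons of its own. Hippocampal neurons make receptors of their own, while some receptor molecules there sit on incoming terminals. Messenger RNA lies largely in cell bodies, so that a gene of cholinergic neurons alone is measured mainly where these neurons have theirs. Ache was abundant in every library and is not read in that way here.

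Chat and Slc18a3 share a locus, which matters for reading their counts. Chat (ENSMUSG00000021919.7) spans 32408203 to 32465989 of chromosome 14 (GRCm38, minus strand), and Slc18a3 (ENSMUSG00000100241.1), which encodes the vesicular transporter, is a single exon from 32462438 to 32464850 on the same strand, inside an intron of Chat that runs from 32462043 to 32465806. The pair shares 0 exonic bases. Slc5a7 (ENSMUSG00000023945.6), the choline transporter gene, is on the minus strand of chromosome 17 from 54273590 to 54299034. The sequences upstream of these 3 genes are shown because all 3 genes were highest in the same library, as described further on. They come from the RefSeq promoter set on GRCm38.p6, are given 5′ to 3′ on the minus strand and stop where GENCODE annotates an exon. Capitals mark every match, on either strand, to CACGTG (an E-box), TGACG (the core of a cAMP response element) or GGGCGG (a GC box).
Chat, chr14:32465990-32466159: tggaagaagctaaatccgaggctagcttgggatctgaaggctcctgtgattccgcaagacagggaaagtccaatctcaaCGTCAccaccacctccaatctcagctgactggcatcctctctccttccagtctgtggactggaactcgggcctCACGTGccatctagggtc
Slc18a3, chr14:32464851-32465041: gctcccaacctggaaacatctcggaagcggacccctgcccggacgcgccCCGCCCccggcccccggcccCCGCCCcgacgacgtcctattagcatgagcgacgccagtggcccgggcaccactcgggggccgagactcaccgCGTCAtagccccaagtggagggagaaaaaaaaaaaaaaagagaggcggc
Slc5a7, chr17:54299035-54299284: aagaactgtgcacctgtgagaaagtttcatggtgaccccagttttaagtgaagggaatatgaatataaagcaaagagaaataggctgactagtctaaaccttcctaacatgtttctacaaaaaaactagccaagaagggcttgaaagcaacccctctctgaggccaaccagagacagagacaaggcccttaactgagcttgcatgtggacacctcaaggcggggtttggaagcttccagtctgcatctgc

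Over these windows of 170, 191 and 250 bases the Chat sequence held 1 E-box and 1 cAMP response core, the Slc18a3 sequence held 1 cAMP response core and 2 GC boxes, and the Slc5a7 sequence held 0 matches. Windows of the same size and place upstream of all 32851 RefSeq entries held the E-box in 3.38% and the cAMP response core in 9.86% of cases for the Chat window. For the Slc18a3 window the cAMP response core was held by 15.3% and the GC box by 30.7%. The palindrome TAATTA, a core bound by LIM homeodomain factors such as the product of Lhx8, was found in 0 of the 3 windows, and 3.66%, 3.57% and 4.84% of all entries held it at these sizes. No motif was therefore common to all 3 windows.

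Before the levels, the libraries themselves need a description. Total counts were 38345220 to 41771872 in sham and 31630936 to 41596363 in TBI. Levels are given as CPM (each count scaled to a common library size), after TMM scaling with factors from 0.970 to 1.02. Markers of the principal cells of the hippocampus were found in every library, and 9 of the 10 had a log2 fold change of TBI over sham under 0. Their summed level was 797 to 1105 CPM in sham, and 508, 759 and 529 CPM in TBI1, TBI2 and TBI3. TBI1 stood apart from the rest in markers of the striatum, which reached 5043 CPM in TBI1 against 182 to 246 CPM in sham and 226 and 280 CPM in TBI2 and TBI3. All 10 striatal markers were detected in all 6 libraries, and in 9 of them TBI1 had over 2 times the level of every other library. Markers of the thalamus summed to 719, 654 and 1110 CPM in Sham3, TBI2 and TBI3, against 299, 169 and 169 CPM in Sham1, Sham2 and TBI1. Over all genes tested, Sham2 and TBI1 were the libraries least like the others. Their median Pearson r of log2 CPM to the other libraries was 0.942 and 0.945, against 0.955 to 0.962 for the rest. Results that rest on TBI1 are given with and without it.

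**Figure D1:**
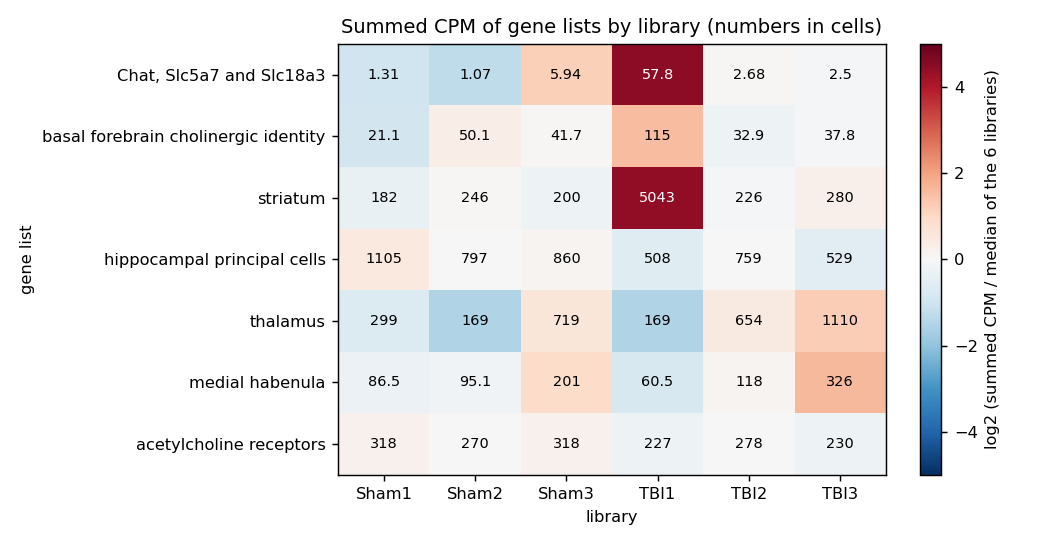
Summed CPM of gene lists (rows) in each of the 6 libraries (columns), with the sum printed in each cell and the color giving its log2 ratio to the median of the 6 libraries. Chat, Slc5a7 and Slc18a3 reached 57.8 CPM in TBI1, where the striatal sum was 5043 CPM, and the hippocampal sum was lowest there at 508 CPM.

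Chat, Slc5a7, Slc18a3 and Lhx8 were low or at 0 in 5 libraries and high in 1, while Ache was abundant in all 6. Chat, the gene of the enzyme that makes acetylcholine and the defining marker of these neurons, was counted 13, 0 and 48 times in the sham libraries, in the order of their numbers, and 660, 16 and 13 times in the TBI libraries. In CPM this was 0.321, 0 and 1.25 in sham, and 16.2, 0.505 and 0.365 in TBI. Only TBI1 was high. The other 2 TBI libraries lay within the range of sham, so the groups overlapped.

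Slc5a7, which returns choline to the terminal, was the most abundant of the 3 in CPM. Its level was 0.987, 0.697 and 3.54 CPM in sham and 30.5, 1.93 and 1.52 CPM in TBI. Slc18a3, which fills the vesicles, had 0, 0.374 and 1.15 CPM in sham and 11.1, 0.253 and 0.618 CPM in TBI. The 3 genes shared one order at the top, with TBI1 highest and Sham3 second. TBI1 exceeded Sham3 12.9-fold for Chat, 8.62-fold for Slc5a7 and 9.72-fold for Slc18a3. It held 94.9%, 89.9% and 92.8% of the summed TBI level of these genes.

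Lhx8 (ENSMUSG00000096225.7), on the minus strand of chromosome 3 from 154306294 to 154330659, encodes a LIM homeodomain factor of the cholinergic lineage of the ventral forebrain. It had 276 counts in TBI1, equal to 6.76 CPM, and 0 counts in each of the other 5 libraries. A count of 0 allows up to 3 counts, which is 0.0740 to 0.0947 CPM in those libraries, if a count is taken as a read. The level in TBI1 was thus at least 71.3-fold higher than in any other library. Lhx8 failed the filter and was not tested in the main comparison. Without a filter edgeR fitted a log2 fold change of 9.44 (standard error 3.89, adjusted p 0.801), a value that depends on the prior count because the sham libraries are all at 0. DESeq2 with its defaults fitted 21.0 (standard error 3.91) and gave no p.

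Ache (ENSMUSG00000023328.14), the gene of acetylcholinesterase, behaved differently from the other 4. It is on the plus strand of chromosome 5 from 137287519 to 137294466, and its level was 55.0, 72.2 and 59.3 CPM in sham and 91.9, 61.1 and 57.7 CPM in TBI. TBI1 was the highest library again, but only 1.27-fold above the next one, Sham2. Expressed per kilobase of exon, Ache stood at 13.5 ± 1.93 CPM per kb in sham (SD, n = 3), whereas Slc5a7 stood at 0.309 ± 0.277, Slc18a3 at 0.210 ± 0.242 and Chat at 0.111 ± 0.138 CPM per kb. The Ache gene shares 98 of its exonic bases (2.12%) with Gm42456, a long noncoding RNA on the opposite strand, which had 8 to 51 counts.

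**Figure D2:**
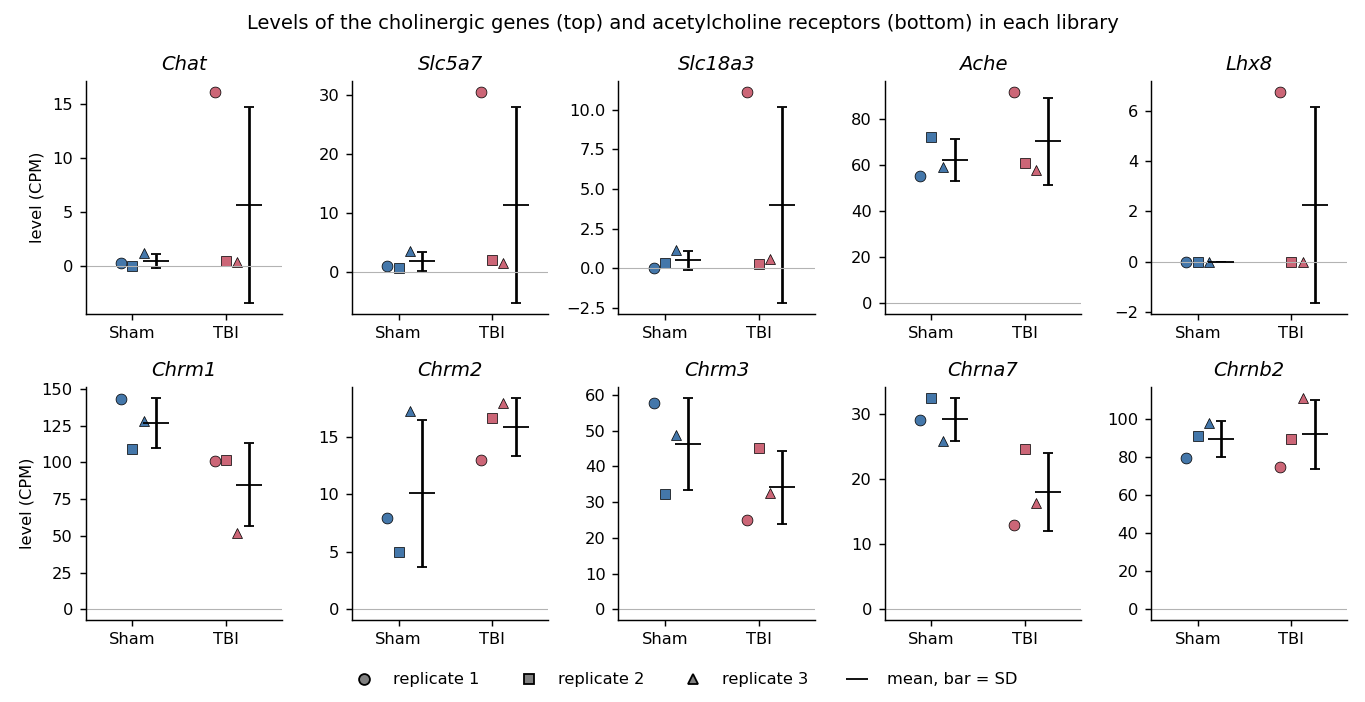
Level of each gene in CPM (vertical axis, linear) by group, with 1 point per library shaped by replicate number, and the group mean with its SD beside the points. In Chat, Slc5a7, Slc18a3 and Lhx8 the TBI mean was carried by TBI1 alone, whereas in Chrm1 and Chrna7 all 3 TBI libraries lay under the lowest sham library.

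No tested presynaptic gene passed an adjusted threshold. Differences between TBI and sham were tested with edgeR's quasi-likelihood test over 18795 genes. A gene was called differentially expressed when it combined a p under 0.05 and a false discovery rate under 0.1 with a 1.5-fold difference in either direction. By this rule edgeR called 0 of the 9 tested members, where the background was 0% of all genes, and DESeq2 with its defaults called 0 of the 6 members to which it gave a p, with a background of 0.164%. It gave none for Chat, Slc5a7 and Slc18a3. At an unadjusted p under 0.05, 0 of the 4 tested presynaptic genes passed with edgeR, against 4.29% of all genes. The unadjusted p of Slc5a7 was 0.0797 there and 0.0405 in the edgeR fit without TBI3. With DESeq2 on the same filtered genes, run with its outlier flagging and independent filtering off, it was 0.0126. The adjusted p of Slc5a7 ran from 0.588 to 0.9999 over all settings that gave one. In the edgeR test of all 6 libraries the adjusted p was 0.982 for 8 of the 9 members and 0.992 for Chrnb2. The log2 fold change was 3.44 for Chat (standard error 1.84). For Slc5a7 it was 2.70 (standard error 1.31) and for Slc18a3 2.98 (standard error 1.73). Without TBI1 these became -0.26 for Chat (standard error 1.52), -0.017 for Slc5a7 (standard error 0.761) and -0.21 for Slc18a3 (standard error 1.52). Ache had 0.18 (standard error 0.213), and -0.066 without TBI1. The means of the 3 sham libraries and of TBI2 and TBI3 were close, at 0.523 and 0.435 CPM for Chat and 1.74 and 1.72 CPM for Slc5a7. Without Sham3, the second highest library, the log2 fold change was 5.12 for Chat, 3.75 for Slc5a7 and 4.41 for Slc18a3.

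**Figure D3:**
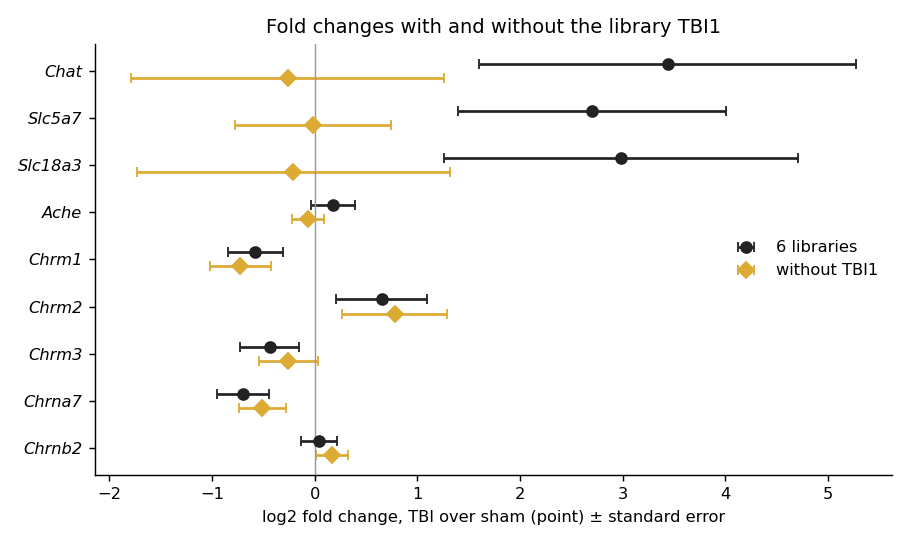
Log2 fold change of TBI over sham (horizontal axis, point) with its standard error for the 9 tested genes, from all 6 libraries and without TBI1. The values of Chat, Slc5a7 and Slc18a3 dropped from between 2.70 and 3.44 to between -0.26 and -0.017 without TBI1, and the directions of the 5 receptors did not turn.

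The summed markers of basal forebrain cholinergic neurons and of the striatum were highest in TBI1, along with the presynaptic genes. Of the 10 thalamic and the 10 habenular markers, 0 were highest there. All 4 tested presynaptic genes were highest in TBI1, as were 19.7% of the genes tested. In 3 of the 4 TBI1 had over 2 times the level of every other library, a pattern held by 1.63% of the genes tested, and the untested Lhx8 had it too. Among 10 genes linked to basal forebrain cholinergic neurons, 9 were highest in TBI1 and 6 were over 2 times every other library. Their sum was 21.1 to 50.1 CPM in sham and 115, 32.9 and 37.8 CPM in TBI1, TBI2 and TBI3. Isl1, a lineage factor that cholinergic neurons share with other cells, had 9.91 CPM in TBI1 and 0.123 to 0.755 CPM elsewhere. Gbx1, a homeobox gene, had 4.28 CPM in TBI1 and at most 0.149 CPM elsewhere. Ecel1 had 47.0 CPM in TBI1 and 20.1 CPM in Sham2, against 1.36 to 4.63 CPM in the others, and was the most abundant gene of this list per kilobase in TBI1 and Sham2 and in the mean of the 6 libraries. Of the striatal markers, 6 of 10 had an unadjusted p under 0.05 in the edgeR fit of all libraries (background 4.29%) and 1 without TBI1 (background 4.33%). Ppp1r1b, the most abundant per kilobase in the mean of the 6 libraries, had 1787 CPM in TBI1 against 80.9 to 149 CPM, and Six3 had 45.3 CPM against 0.946 to 9.32 CPM. The striatal dopamine receptor gene Drd2 had 185 CPM in TBI1 against 2.30 to 5.22 CPM, and the adenosine receptor gene Adora2a had 296 CPM against 2.04 to 4.24 CPM. Lhx6, a factor of forebrain interneurons, was only 1.05-fold above the next library, and Zic4 was lowest in TBI1 at 2.03 CPM. Whether RNA from these regions had a part in the presynaptic levels was not tested.

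Among the libraries other than TBI1, Chat, Slc5a7 and Slc18a3 were each highest in Sham3, where they summed to 5.94 CPM against 1.07 to 2.68 CPM in the other 4. Over these 5 libraries, Chat and Slc5a7 had a Pearson r of 0.90, and Chat and Slc18a3 of 0.21. Over all 6 the values were 0.96 and 0.73, and TBI1 contributes most of the range. With so few libraries and counts of 0 to 48 for Chat outside TBI1, these are descriptions only. The genes most like the mean of Chat, Slc5a7 and Slc18a3 over the 6 libraries, other than the members, were Rhobtb2 (r = 0.996), Mapk4 (0.996), a gene listed only as ENSMUSG00000070823.6 (0.995), Gm38101 (0.993) and Adgrl2 (0.988). In all, 65 of 18786 genes had an r over 0.95. The excess of TBI1 over Sham3 was smaller for Rhobtb2 than for Chat, Slc5a7 and Slc18a3. Rhobtb2 had 152 CPM in TBI1 and 97.5 CPM in Sham3, against 62.5 to 82.4 CPM in the other libraries.

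In sham, the 5 receptors were each more abundant than Chat, Slc5a7, Slc18a3 and Lhx8. Per kilobase of exon in sham, Chrm1 came first at 19.6 ± 2.66 CPM per kb (SD, n = 3), ahead of Ache. Then followed Chrnb2 at 10.7 ± 1.12, Chrm3 at 7.40 ± 2.06, Chrna7 at 6.47 ± 0.730 and Chrm2 at 1.66 ± 1.05 CPM per kb. The sham ranges of Chrm3 and Chrna7 overlapped, so their order is not resolved. No other neighbors in the order overlapped among the receptors and Ache. Slc5a7, Slc18a3 and Chat, at the low end, overlapped one another. In TBI the same 5 receptors had means of 13.1 ± 4.36 for Chrm1, 11.0 ± 2.18 for Chrnb2, 5.46 ± 1.63 for Chrm3, 3.99 ± 1.33 for Chrna7 and 2.62 ± 0.421 CPM per kb for Chrm2.

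Chrm1 (ENSMUSG00000032773.9; chromosome 19, plus strand, 8663789 to 8683587) encodes the M1 muscarinic receptor, which couples to Gq in pyramidal neurons. Its level was 143, 109 and 128 CPM in sham and 101, 101 and 52.2 CPM in TBI. Every TBI library was under every sham library, but the lowest sham library was only 1.07-fold above the highest TBI library. The sham mean was 127 ± 17.3 CPM and the TBI mean 84.9 ± 28.3 CPM (SD, n = 3 each). This gave a log2 fold change of -0.58 (standard error 0.270). It was -0.72 without TBI1 and -0.33 without TBI3, the lowest library. A small RNA annotated on the opposite strand, Gm22820, lies wholly inside Chrm1 exons and covers 5.07% of them. It had 42 to 136 counts, and how reads there were assigned is not known.

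Chrna7 (ENSMUSG00000030525.8; chromosome 7, minus strand, 63098692 to 63212569) encodes the alpha7 subunit, which forms fast, calcium-permeable homomeric channels and is expressed by hippocampal interneurons and pyramidal cells. Its level was 29.0, 32.5 and 25.9 CPM in sham and 13.0, 24.7 and 16.3 CPM in TBI. The groups did not overlap, with a lowest sham library 1.05-fold above the highest TBI library, TBI2. The sham mean was 29.2 ± 3.29 CPM and the TBI mean 18.0 ± 6.01 CPM (SD, n = 3 each). Chrna7 had a log2 fold change of -0.70 (standard error 0.255) and an unadjusted p of 0.0309 in the edgeR fit. It was the only member at an unadjusted p under 0.05, 1 of 9, where 2.13% of all genes were called in that direction. With DESeq2's defaults 2 members, Chrna7 (0.0132) and Chrm1 (0.0491), were under 0.05, against 4.11% of all genes. The log2 fold change of Chrna7 ran from -0.998 without TBI2 (unadjusted p 0.00304 in the edgeR fit) to -0.51 without TBI1 (0.0716). The unadjusted p in the edgeR fit was also over 0.05 without Sham1 (0.0631), Sham2 (0.0788) or TBI3 (0.0814), and the adjusted p under other tools, filters and scalings and with 1 library left out ran from 0.610 to 0.9999.

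Thus 2 of the 9 tested members, Chrm1 and Chrna7, were lower in all TBI libraries than in all sham libraries, and 0 were higher in all. Of all genes tested, 5.46% were apart in the lower and 4.77% in the higher direction. Of the 10 markers of hippocampal principal cells, 2 (Prox1 and Fibcd1) were also lower in all TBI libraries. Wfs1, of CA1, was the 1 marker with a log2 fold change above 0 (0.21, or -0.57 without TBI1), and TBI1 was its highest library at 275 CPM. Prox1, of dentate granule cells, had 69.9 to 95.9 CPM in sham and 19.6, 56.4 and 56.0 CPM in TBI1, TBI2 and TBI3, and Fibcd1, of CA1, had 99.8 to 142 CPM in sham and 13.1, 76.8 and 49.4 CPM in TBI. Neurod6, the most abundant of these markers per kilobase in the mean of the 6 libraries, had 131 to 252 CPM in sham and 29.3, 142 and 84.6 CPM in TBI, and Cpne4 was the 1 marker at an unadjusted p under 0.05 (log2 fold change -0.69, standard error 0.287). Without TBI1 Cpne4 was not under 0.05 and 2 others, Prox1 and Fibcd1, were. The median log2 fold change of the 10 markers was -0.91, against 0.0091 over all genes tested, and -0.55 without TBI1. Pan-neuronal markers had a median of -0.056, with 3 of 8 higher. Their most abundant gene per kilobase, Snap25, had a log2 fold change of 0.052 (standard error 0.130). Map2 was the only one of these 8 at an unadjusted p under 0.05 (log2 fold change -0.61). Markers of microglia and macrophages summed to 262 to 368 CPM in sham and to 517, 370 and 268 CPM in TBI. All 8 had a log2 fold change above 0, where 51.4% of all genes had one, and TBI1 was the highest library for 6 of them. Their median was 0.35, or 0.086 without TBI1, where Csf1r (-0.25) and Tmem119 (-0.069) were under 0. C1qa, the most abundant per kilobase, had a log2 fold change of 0.39 (standard error 0.310), or 0.075 without TBI1. The part of the principal cell and other markers in the receptor levels was not tested. In bulk tissue, fewer cells of a type, less RNA per cell and a larger part of RNA from other regions cannot be told apart.

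Chrm3 (ENSMUSG00000046159.16, chromosome 13, minus strand, 9875486 to 10360847), the other Gq-coupled muscarinic gene of the set, had 57.7, 32.3 and 48.9 CPM in sham and 24.8, 45.1 and 32.5 CPM in TBI. Sham2 was the low sham library and TBI2 the high TBI library, so the groups overlapped. The log2 fold change was -0.44 (standard error 0.290), and it ran from -0.70 without TBI2 to -0.25 without Sham1.

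Chrm2 (ENSMUSG00000045613.9, chromosome 6, plus strand, 36388084 to 36528414) encodes the Gi-coupled M2 receptor, which is found on cholinergic terminals as an autoreceptor, on interneurons and in the thalamus. Among the 5 receptors it had the highest log2 fold change. Its level was 7.97, 5.01 and 17.2 CPM in sham and 13.0, 16.6 and 17.9 CPM in TBI, so that 2 sham libraries were low and Sham3 lay among the TBI libraries. This gave a log2 fold change of 0.65 (standard error 0.444). Without Sham3 it was 1.28 (standard error 0.299, unadjusted p 0.00627, adjusted p 0.937 in the edgeR fit), where 4.52% of all genes had an unadjusted p under 0.05. Over all the other settings tried the adjusted p ran from 0.801 to 0.9999. Without Sham2 the log2 fold change was 0.33. Sham3, TBI2 and TBI3, the 3 libraries with the most Chrm2, were also the 3 with the most thalamic markers. Slc17a6, the vesicular glutamate transporter of thalamic neurons, had 132, 121 and 177 CPM there, against 44.3, 19.1 and 12.9 CPM in Sham1, Sham2 and TBI1, and all 10 thalamic markers were detected in every library. Calb2, the most abundant of them per kilobase, had 98.0, 61.4 and 254 CPM in these 3 libraries and 13.2 to 37.2 CPM in the others. Their part in the Chrm2 level was not tested. The long noncoding RNA 9330158H04Rik, on the opposite strand, shares 2.35% of the exonic bases of Chrm2.

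Chrnb2 (ENSMUSG00000027950.7, chromosome 3, minus strand, 89746195 to 89764632) encodes the beta2 subunit, the usual partner of alpha4 in the high-affinity nicotinic receptor of the brain. Its level was 79.5, 91.2 and 98.1 CPM in sham and 75.1, 89.8 and 111 CPM in TBI. The sham range lay inside the TBI range, and the log2 fold change was 0.040 (standard error 0.173). It was 0.17 without TBI1 and -0.13 without TBI3. Of its exonic bases 1365 (16.3%) are shared with Adar on the opposite strand, which had 4468 to 6083 counts. Strandedness is not given in the sources used here, so reads of that stretch could belong to either gene.

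Within the muscarinic family, the make-up differed most in TBI1. The 5 muscarinic genes summed to 34.7 ± 3.08 CPM per kb in sham (SD, n = 3), and to 49.7, 31.7 and 19.3 CPM per kb in TBI1, TBI2 and TBI3. Chrm1 held 59.4%, 53.7% and 55.5% of that sum in sham and 31.3%, 49.4% and 41.7% in TBI. In TBI1 the largest share belonged to Chrm4, the Gi-coupled M4 receptor that is abundant in striatal projection neurons, with 55.6% there, against 10.03% to 19.0% in the other 5 libraries. Chrm4 had 39.8 CPM in TBI1 and 3.45 to 8.54 CPM elsewhere. Its log2 fold change of 1.35 (standard error 0.849) became -0.30 without TBI1.

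The nicotinic genes summed to 23.5, 24.9 and 31.5 CPM per kb in sham and 17.4, 26.5 and 28.4 CPM per kb in TBI. Chrnb2 held the largest share in every library, from 37.1% to 51.6%. Chrna7 held 27.4%, 29.0% and 18.3% of the nicotinic sum in sham and 16.6%, 20.7% and 12.8% in TBI, and here Sham3 lay below TBI2. Chrna4, the partner of beta2, held 15.5% to 28.7%, more than Chrna7 in 4 of the 6 libraries and less in Sham1 and Sham2. It had 19.3 and 20.7 CPM in Sham2 and Sham1, 45.2 CPM in Sham3, and 19.4, 35.6 and 40.9 CPM in TBI. Its order again had Sham3, TBI2 and TBI3 at the top.

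**Figure D4:**
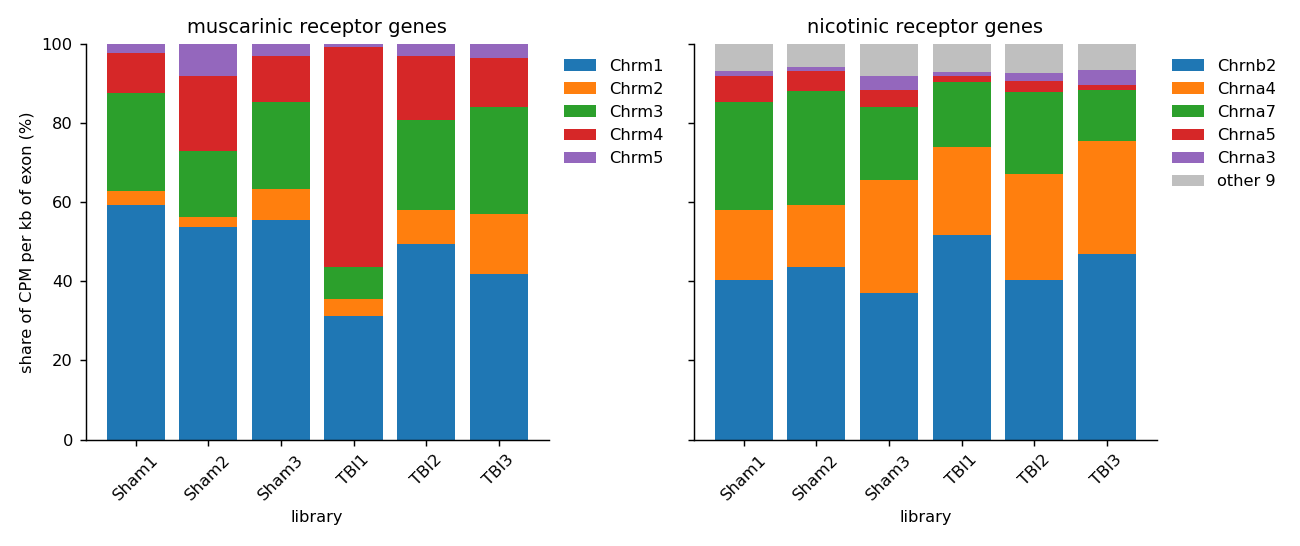
Share of each receptor gene in the summed CPM per kilobase of exon (vertical axis, percent) of the 5 muscarinic genes (left) and the 14 nicotinic genes with any count (right), with 1 bar per library. Chrm4 held 55.6% in TBI1 and Chrm1 the largest share in the other 5 libraries, and Chrnb2 held the largest nicotinic share in all 6.

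Of the 16 other muscarinic and nicotinic genes, 11 passed the filter, 5 with a log2 fold change above 0 and 6 under 0, and the median was -0.12, or -0.23 without TBI1. Chrna9 and Chrnd had 0 counts in every library, and Chrna10, Chrne and Chrng were also too low to test. Chrna5, an accessory subunit that joins alpha4 and beta2 or alpha3 and beta4, was the 1 gene of this group at an unadjusted p under 0.05. It had 197, 160 and 169 counts in sham and 30, 73 and 37 in TBI. The sham mean was 4.42 ± 0.439 CPM and the TBI mean 1.36 ± 0.833 CPM (SD, n = 3 each), and the lowest sham library was 1.73-fold above the highest TBI library. Chrna5 had a log2 fold change of -1.70 (standard error 0.462, edgeR adjusted p 0.982), and -1.40 without TBI1. Chrna3 and Chrnb4, which lie beside Chrna5 in the genome and are strongly expressed in the medial habenula, had overlapping groups. Chrna3 had 1.55, 1.07 and 5.62 CPM in sham and 0.979, 2.84 and 5.75 CPM in TBI, and its log2 fold change was 0.21 (standard error 0.823). The 10 markers of the medial habenula, which include Chrna3, Chrnb4 and Calb2, summed to 86.5, 95.1 and 201 CPM in sham and to 60.5, 118 and 326 CPM in TBI. Calb2, which is also on the thalamic list, made up 98.0 CPM of the Sham3 sum and 254 CPM of the TBI3 sum. Of the 10 habenular markers, 6 had a log2 fold change under 0, and the median was -0.18, or -0.028 without TBI1.

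The genes that assemble, anchor or modulate these receptors were all tested, 8 of 10 with a log2 fold change above 0 where 51.4% of all genes had one, a median of 0.31 (0.20 without TBI1) and 0 at an unadjusted p under 0.05 in the edgeR fit. Lynx1, a prototoxin that binds nicotinic receptors, was the most abundant, with a sham mean of 543 ± 37.4 CPM and a TBI mean of 491 ± 46.1 CPM (SD, n = 3 each). Prima1, which anchors acetylcholinesterase in the membrane of neurons, had 11.4 CPM in TBI1 and 1.54 to 2.41 CPM in the other 5 libraries.

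In choline handling, 7 of 10 genes had a log2 fold change above 0 and the median was 0.12, or 0.077 without TBI1. Slc44a1, a choline transporter of low affinity, was the most abundant per kilobase in the mean of the 6 libraries, at 108 ± 32.0 CPM in sham and 120 ± 9.86 CPM in TBI. In 3 of the 10 (Chpt1, Pcyt1a and Pld2) all TBI libraries were above all sham libraries, against 4.77% of all genes. Chpt1, the cholinephosphotransferase of phosphatidylcholine synthesis, was at an unadjusted p under 0.05. It had 33.9, 17.4 and 40.8 CPM in sham and 50.6, 48.3 and 108 CPM in TBI, without overlap (log2 fold change 1.17, standard error 0.426). Sycp3, on the opposite strand, shares 7.93% of its exonic bases and had 78 to 262 counts.

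In the signalling cascade below the muscarinic receptors, 10 of 17 genes had a log2 fold change above 0 and the median was 0.072, or -0.19 without TBI1. Itpr1, the inositol trisphosphate receptor that releases calcium after Gq coupling, had 458, 226 and 399 CPM in sham, and 1066 and 1223 CPM in TBI1 and TBI3 but 379 CPM in TBI2. Its log2 fold change was 1.30 (standard error 0.466). Prkca, the protein kinase C alpha gene, had 205 to 297 CPM in sham and 128, 206 and 146 CPM in TBI (log2 fold change -0.63, standard error 0.222). Adcy1, the most abundant gene of this group per kilobase in the mean of the 6 libraries, had a sham mean of 1274 ± 565 CPM and a TBI mean of 1174 ± 517 CPM (SD, n = 3 each), with Sham2 and TBI1 as the low library of each group. Adcy5, the adenylyl cyclase of striatal neurons, had 1365 CPM in TBI1 and 164 to 227 CPM elsewhere. Over the 53 other genes of the pathway, 48 were tested, and 4 (2 higher and 2 lower) had an unadjusted p under 0.05, where 2.16% of all genes were higher and 2.13% lower at that threshold. All 4 had the adjusted p of 0.982 in the edgeR fit. Without TBI1 there were 3 of 48 (Chrna5, Chpt1 and Plcb1), against 4.33% of all genes.

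**Figure D5:**
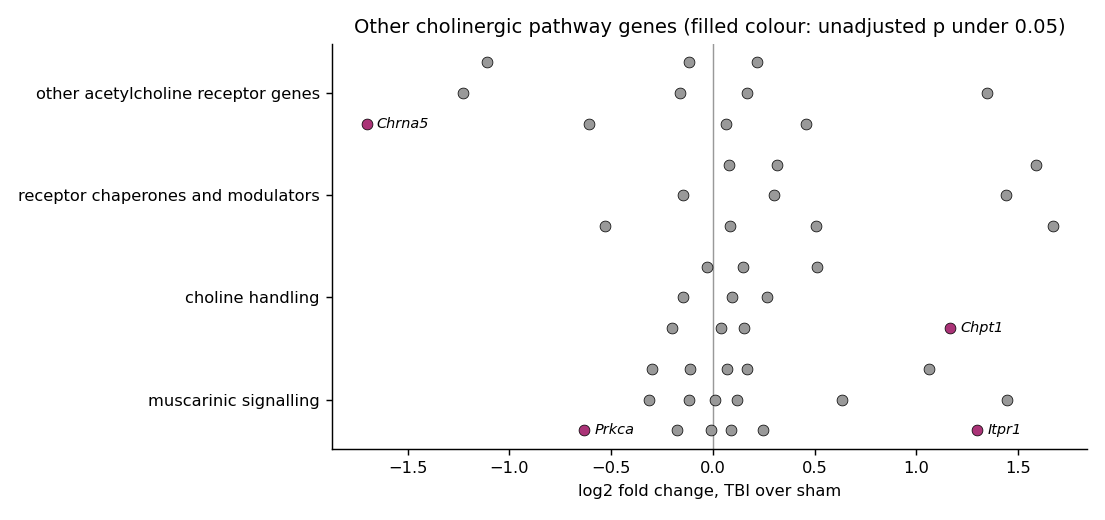
Log2 fold change of TBI over sham (horizontal axis) for the 48 tested genes of the cholinergic pathway that are not among the 10 members, by group of genes (rows, with points set apart vertically for legibility). Only Chrna5, Chpt1, Itpr1 and Prkca are colored, for an unadjusted p under 0.05, and none passed the adjusted threshold.

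The genes most like Chrm1 over the 6 libraries, other than the members, were Elfn1 (Pearson r = 0.997), Dlx1 (0.992), Mettl14 (0.992), Dlg3 (0.988) and Ppp6c (0.986), with 50 of 18786 genes over 0.95. Elfn1 had 37.5, 32.7 and 36.7 CPM in sham and 31.2, 31.9 and 21.6 CPM in TBI. As for Chrm1, TBI3 was the low library and Sham1 the high one. Chrm1 and Chrna7 had an r of 0.58 over 6 libraries and 0.88 over the 5 without TBI1.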

How the data were processed

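Hippocampal total RNA from 3 sham and 3 TBI mice was sequenced, with 1 library per mouse, and groups were taken from the sample titles. Read quality was checked by the authors with FastQC, HISAT2 aligned the reads to GRCm38 and StringTie quantified the genes. The deposited values are estimated counts, one whole number per gene and library, and were not normalized. The versions of these 3 tools, strandedness, the annotation release and how coverage became counts are not given in the sources used here. The value 4 occurred 5109 times and the value 3 2325 times, so single counts cannot be equated with reads, and floors are approximate and cover counting error only. Of 52550 gene identifiers, 52403 were matched without version to GENCODE vM21, which gave symbols, exon lengths and overlaps.

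In R 4.3.3, genes were kept by filterByExpr with the groups, TMM factors were computed, and TBI was compared with sham by the quasi-likelihood test of edgeR 4.0.16, with Benjamini-Hochberg adjustment over 18795 genes. The study's tool, DESeq2 (here 1.42.0), was run as an alternative, as were other scalings, filters, robust dispersions, counts divided by 4, the replicate block and each library left out. DESeq2 was run with its defaults, and on the genes kept by filterByExpr with its outlier flagging and independent filtering off. The standard error is the log2 fold change over the square root of F. The scripts were tested on simulated data. Likeness is Pearson's r of log2 CPM with a prior count of 2.

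The members and gene lists were chosen with earlier results of these data known. Besides the members, genes were named if they were in a list and had an unadjusted p under 0.05 (at most 5 a list), were the most abundant of a list per exonic length, were most like Chat, Slc5a7 and Slc18a3 or Chrm1, or overlapped a member. Sycp3 was named because it overlaps Chpt1. Other markers (Isl1, Gbx1, Lhx6, Zic4, Prox1, Fibcd1, Wfs1, Slc17a6, Csf1r, Tmem119) and Plcb1, Pcyt1a, Pld2, Chrna3, Chrnb4, Chrna4, Prima1 and Adcy5 were named after their values were seen. Some marker genes are not reported here. Alternatives with TBI1 left out of DESeq2 or of the unfiltered fit were also chosen after seeing the data.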

Additional observations from a re-analysis of the deposited data

How the results depend on the processing

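The count of differentially expressed genes over all 18795 genes was 0 with edgeR. It was 46 with DESeq2's defaults, 50 with DESeq2 on the genes kept by filterByExpr, and 43 with DESeq2's defaults without TBI1 (chosen after seeing the data), and between 0 and 1 with edgeR and 1 library left out. None of the 10 members was among these calls. The DESeq2 fit of the filtered genes also had its outlier flagging and independent filtering off. At an unadjusted p under 0.05 the presynaptic genes numbered 0 in edgeR and 1 (Slc5a7) with DESeq2 on the filtered genes, and 0 to 1 with 1 library left out. The receptors numbered 1 in edgeR, 2 with DESeq2's defaults, 0 without a filter and without TBI1, and 0 to 2 with 1 library left out. The other pathway genes numbered 4 in edgeR, 6 with DESeq2's defaults and 5 with DESeq2 on the filtered genes, and 2 to 7 with 1 library left out. DESeq2's defaults gave Chat, Slc5a7, Slc18a3 and Lhx8 no p-value. Directions turned without TBI1 for 4 genes. The log2 fold change was then -0.26 for Chat, -0.017 for Slc5a7, -0.21 for Slc18a3 and -0.066 for Ache with edgeR. Without a filter it was -0.27, -0.024, -0.22 and -0.073, and with DESeq2's defaults it was -0.28, -0.028, -0.22 and -0.079. Chrnb2 turned to -0.034 without Sham1 and -0.13 without TBI3. With 1 library left out the log2 fold changes reached at most 5.12 for Chat, 3.75 for Slc5a7, 4.41 for Slc18a3, 0.30 for Ache and 0.17 for Chrnb2. These reversals follow from which libraries are left. In the other 135 of 141 fits of the members that were listed at the outset, the direction did not change, and no fit that gave an adjusted p passed the threshold. With the replicate number as a block, the count over all genes stayed at 0, the presynaptic genes at 0 and the receptors at 1, and the other pathway genes went to 6, while the log2 fold change was 3.10 for Chat, 1.66 for Slc5a7 and 1.13 for Slc18a3. Same-numbered libraries deviated together with a correlation of -0.0996, -0.0650 and 0.153, so the numbers were not taken to pair mice, and only Sham3 and TBI3 correlated best with their own number. The fit that needs 10 counts in every library and the fit of counts divided by 4 left out Chat and Slc18a3. An exact permutation test over 6 libraries has 0.1 as its smallest p, so none is given. The low counts of Chat, Slc18a3 and Lhx8 outside TBI1 limit what can be said of their levels.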
